A study of Mus musculus with 2 samples.

Results

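The genes described here are 6 mouse genes that act early in B cell development: Rag1, Rag2, Dntt, Vpreb1, Igll1 and Vpreb3, out of 21938 protein-coding genes of the GENCODE vM21 annotation. They were chosen by name for their function, with earlier results of these data known. Open chromatin around them was read from DNase-seq, in which the nuclease DNase I cuts accessible DNA in nuclei and the cut ends are sequenced. The data come from spleen of female B6CASTF1/J mice, a hybrid of C57BL/6 and CAST, aged 36 days, with no treatment named in the labels. There is 1 group of 2 libraries, called replicates 1 and 2. The labels number the females differently but give both libraries the same donor entry, so the spread between them may in part be technical. No comparison between groups is possible, and every value is a description given for each library.

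V(D)J recombination assembles the variable parts of antibody and T cell receptor genes in developing lymphocytes. RAG1 and RAG2 together form the nuclease that cuts at recombination signal sequences, and terminal deoxynucleotidyl transferase, the product of Dntt, adds nucleotides at the joints. VPREB1 and IGLL1 (lambda 5) make up the surrogate light chain, which pairs with the immunoglobulin heavy chain in the pre-B cell receptor, and VPREB3 binds immunoglobulin chains inside B lineage cells. In mice these steps of B cell development take place in the bone marrow, whereas most B cells of the spleen have completed them. Rag1, Rag2, Dntt, Igll1 and Vpreb1 are known to be silent in most mature B cells, and Vpreb3 is expressed beyond the precursor stages.

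Open sites were the peaks of the shorter of the 2 peak lists deposited for each library, in which every peak holds a stretch with a false discovery rate (FDR) of at most 0.001 for its cut rate. This list held 42454 peaks in replicate 1 and 60683 in replicate 2. The longer list held 61285 and 89476 peaks. The signal of a peak is the authors' value on a scale that is not stated, so signals compare sites within a library, and ranks run from the strongest peak down. Each locus was taken as the gene body extended by 20 kb to either side, and the promoter as the 1 kb to either side of any annotated start. The loci of Rag1 and Rag2 overlap, as do those of Vpreb1 and Igll1, so the 6 genes occupy 4 separate regions. A peak lay at the promoter of 2 of the 6 genes in each library, Vpreb1 and Vpreb3 in both cases. The same call was made for 55.1% of all protein-coding genes in replicate 1 and for 58.7% in replicate 2. Promoters of the 6 genes are poor in CpG, with observed over expected ratios from 0.117 (Igll1) to 0.257 (Rag1), against a median of 0.425 over all genes. Each ratio is the median over a gene's start sites. Below the median of all genes, the share of promoters with a peak was 30.7% in replicate 1 and 34.7% in replicate 2. The 33.3% found for the 6 genes is thus near the share for other CpG-poor genes, when genes are classed by this median. The Vpreb1 call, however, rests on an outer start with a CpG ratio of 0.720, which is not CpG-poor. In the longer lists the same 2 genes had a promoter peak, against 59.3% and 63.7% of all genes. Spleen is a mixed tissue, and fewer cells with an open site cannot be told apart from less opening per cell.

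The sequences of the open sites that carry these results are printed here, 5′ to 3′ on the + strand of mm10, for the peak as called in replicate 2. Capitals mark the footprints of replicate 2, short stretches protected from cutting within open DNA, as deposited by the authors. Annotated untranslated bases were left out where a peak held them. The first 4 sites lie around Rag1 and Rag2.

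Rag upstream site, chr2:101616001-101616160: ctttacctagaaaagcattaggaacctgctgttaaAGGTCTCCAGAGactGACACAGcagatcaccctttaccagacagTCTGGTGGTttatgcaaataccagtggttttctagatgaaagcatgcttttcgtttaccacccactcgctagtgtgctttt
Rag2 intron site, chr2:101628991-101629140: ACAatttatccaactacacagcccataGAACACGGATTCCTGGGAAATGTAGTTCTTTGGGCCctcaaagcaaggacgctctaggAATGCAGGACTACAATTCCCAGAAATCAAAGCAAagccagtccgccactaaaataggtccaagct
Rag1 near site, chr2:101652961-101653120: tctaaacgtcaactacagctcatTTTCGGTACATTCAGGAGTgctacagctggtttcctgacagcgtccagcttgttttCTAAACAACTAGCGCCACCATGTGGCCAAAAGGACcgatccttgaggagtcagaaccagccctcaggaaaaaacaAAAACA
Rag1 far site, chr2:101665401-101665560: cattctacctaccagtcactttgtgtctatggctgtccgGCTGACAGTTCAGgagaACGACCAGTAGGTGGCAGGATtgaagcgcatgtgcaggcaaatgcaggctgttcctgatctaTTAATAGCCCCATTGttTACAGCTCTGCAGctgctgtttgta

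The next 3 sites lie upstream of Dntt, in an intron of Dntt and in an intron of its neighbour Opalin.

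Dntt upstream site, chr19:41016021-41016220: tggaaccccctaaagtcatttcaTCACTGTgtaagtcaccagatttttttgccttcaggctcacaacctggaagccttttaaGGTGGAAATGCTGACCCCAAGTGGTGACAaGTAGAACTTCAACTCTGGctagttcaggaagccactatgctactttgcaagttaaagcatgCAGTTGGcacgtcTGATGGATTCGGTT
Dntt intron site, chr19:41053601-41053800: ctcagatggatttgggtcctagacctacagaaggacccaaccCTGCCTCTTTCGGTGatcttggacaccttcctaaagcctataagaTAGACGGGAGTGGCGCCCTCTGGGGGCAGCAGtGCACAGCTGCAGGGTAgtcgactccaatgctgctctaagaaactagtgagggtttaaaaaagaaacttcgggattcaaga
Opalin intron site, chr19:41071661-41071800: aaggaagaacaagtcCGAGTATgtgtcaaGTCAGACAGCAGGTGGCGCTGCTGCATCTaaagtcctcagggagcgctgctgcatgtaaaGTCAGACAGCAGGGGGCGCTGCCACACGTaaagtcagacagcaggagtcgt

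The last 3 lie downstream of Igll1, at a start site of Vpreb3 and just past the end of Vpreb3.

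Igll1 downstream site, chr16:16854981-16855137: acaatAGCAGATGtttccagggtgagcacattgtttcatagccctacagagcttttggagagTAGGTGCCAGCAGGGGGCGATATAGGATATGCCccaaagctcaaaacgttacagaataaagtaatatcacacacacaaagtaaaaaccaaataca
Vpreb3 start site, chr10:75948181-75948299: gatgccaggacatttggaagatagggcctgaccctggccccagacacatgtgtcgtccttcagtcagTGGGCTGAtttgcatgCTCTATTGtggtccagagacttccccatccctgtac
Vpreb3 end site, chr10:75949801-75949980: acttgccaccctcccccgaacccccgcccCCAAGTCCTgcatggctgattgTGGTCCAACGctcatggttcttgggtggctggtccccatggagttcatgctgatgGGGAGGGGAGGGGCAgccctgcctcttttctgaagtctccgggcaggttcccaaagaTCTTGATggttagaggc

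Over the 4 regions, 16 peaks lay in replicate 1 and 21 in replicate 2, a mean of 18.5 ± 3.54 (SD, n = 2). All 16 peaks of replicate 1 were also called in replicate 2, a share of 100% with an exact 95% interval from 79.4% to 100% for counting error. Of the 21 peaks of replicate 2, 16 were called in replicate 1, which is 76.2% (exact interval 52.8% to 91.8%). Over all peaks of the libraries these shares were 93.8% and 65.7%. The 5 peaks of replicate 2 without a partner were 2 in introns of Dntt and 3 in the Vpreb3 region. For 4 of these 5 the longer list of replicate 1 held a peak at the same place. Footprints inside the peaks numbered 45 in replicate 1 and 69 in replicate 2 (57.0 ± 17.0, SD, n = 2). Replicate 2 had more peaks and footprints here, as it had in the whole genome, where 133725 and 246700 footprints were deposited.

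**Figure D1:**
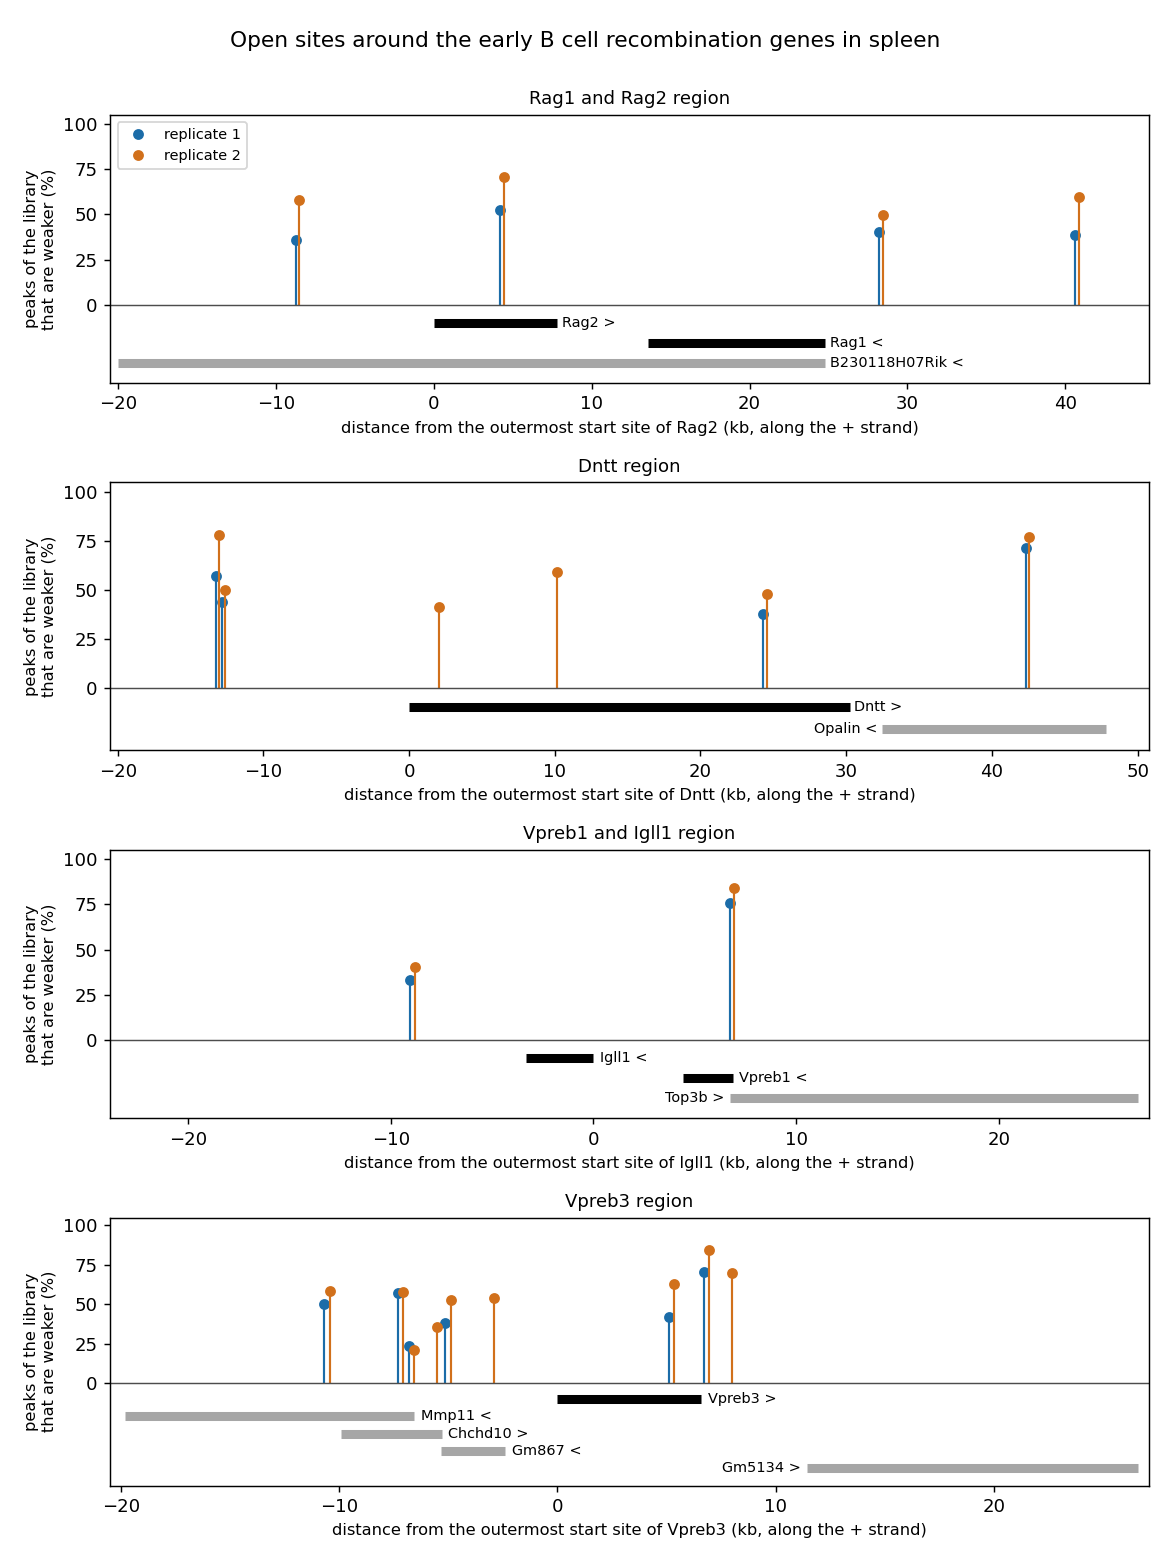
Open sites in the 4 regions. Each stem is a peak of the shorter list, placed by its distance in kb from the outermost start site of the named gene, and its height is the percent of peaks of the same library with a lower signal. Blue is replicate 1 and orange is replicate 2, drawn slightly apart so that both show. Black bars are bodies of the 6 genes, grey bars those of neighbours, and arrowheads give the strand. No stem stands at the start sites of Rag1, Rag2, Dntt or Igll1, whereas the Vpreb1 end of the third panel holds a peak above 75.7% and 84.1% of the others.

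Rag1 and Rag2 encode the recombinase and lie tail to tail, with 5752 bases between their ends. Rag1 is at chr2:101638282-101649501 on the - strand and Rag2 at chr2:101624718-101632529 on the + strand. B230118H07Rik, a gene on the - strand, spans both and has an annotated start site 31 bases from that of Rag1. No peak of either list lay within 1 kb of a start site of Rag1 or Rag2 in either library. The cut rate track listed 0 bases there, where it lists any stretch with an FDR under 0.05, and no footprint was called. Among all genes without a promoter peak, 11.6% of those in replicate 1 and 15% of those in replicate 2 had such a listed stretch within 1 kb, and 6.41% and 7.39% had one with an FDR of at most 0.01. A lack of any listed stretch is therefore the usual state of a promoter without a peak. The nearest peak to the Rag1 start began 3460 bases away in both libraries. The nearest to the Rag2 starts began 4175 bases away in replicate 1 and 4195 in replicate 2.

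The Rag region of 64.8 kb nonetheless held 4 peaks, the same 4 in each library. The strongest, the Rag2 intron site, had a signal of 1.47 in replicate 1 and 2.16 in replicate 2. It ranked 20245 among the peaks of replicate 1 and 17732 among those of replicate 2, so it was stronger than 52.3% and 70.8% of them. This site lies 4295 bases downstream of the inner Rag2 start, and its midpoint is in an intron of Rag2. It also lies 32 bases from an internal start site of B230118H07Rik on the opposite strand. It is thus a promoter peak of the antisense gene and not of Rag2 under the annotation. The Rag1 near site, 3540 bases upstream of Rag1 between genes, had signals of 1.13 and 1.13. The Rag1 far site, 15970 bases upstream of Rag1, had signals of 1.10 and 1.46. The Rag upstream site, 8637 bases upstream of Rag2 in an intron of B230118H07Rik, had signals of 1.03 and 1.40. These 3 sites were weaker than the Rag2 intron site in both libraries, and all 3 lay away from any promoter of a protein-coding gene. A further place, in an exon of Rag1, was called in the longer list of replicate 2 alone, with a signal of 0.364.

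The letters of these sites were compared with short motifs of factors known in B cells, on both strands, in the 200 bases around each peak's midpoint. A match is a description of the letters and not of binding. The Rag2 intron site held TGGGAA, a core motif of the Ikaros family of zinc finger proteins, at 2 places, each inside a footprint in both libraries. TGGGAA occurred in 15.0% of peak windows in each library. The same 2 footprints hold ACANNTCCC, which is part of the consensus of ZNF143, a factor of many promoters, and which overlaps the TGGGAA matches. This motif was chosen after the footprint sequences had been read. Any match to ACANNTCCC was found in 4.61% of peak windows of replicate 1 and 4.55% of replicate 2. At least 2 matches to ACANNTCCC were found in 0.254% and 0.237%. The share given for TGGGAA is for any match, and windows with at least 2 were not counted for it. The Rag upstream site held the octamer ATGCAAAT, the motif of the POU factors OCT1 and OCT2, outside the footprints. The octamer was present in 1.78% and 1.95% of peak windows. The Rag1 far site held GTAAACA, a forkhead motif bound by FOXO factors, present in 2.18% and 2.36% of windows. At the Rag1 start itself, which had no peak, the 250 bases before it held TGTGGT, the RUNX core, 112 and 98 bases upstream, CAGGTG, an E box read by E2A, 166 bases upstream, and TGGGAA 83 bases upstream. These motifs occurred in 15.9%, 21.1% and 24.1% of all promoter windows of 300 bases.

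Both Rag1 sites held a wide footprint whose letters resemble the consensus of CTCF, the zinc finger protein found at many insulators and loop anchors. This consensus was likewise chosen after the footprints had been read. Read over 12 positions on both strands, the Rag1 far site matched it with 0 mismatches at CCAGTAGGTGGC and the Rag1 near site with 1 mismatch at CCACCATGTGGC. The match lay wholly inside a footprint of both libraries at the near site and of replicate 2 at the far site. A match with 0 mismatches was found in 8.57% of peak windows of replicate 1 and 6.29% of replicate 2, and one with at most 1 mismatch in 23.2% and 18.0%.

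Dntt, at chr19:41029275-41059525 on the + strand, had no peak and 0 listed bases within 1 kb of any of its 3 start sites in either library. Its locus of 70.3 kb held 4 peaks in replicate 1 and 6 in replicate 2, all away from promoters of protein-coding genes. The longer lists gave 7 and 8. The Dntt upstream site, 13144 bases before the gene, had a signal of 1.68 in replicate 1 and 3.02 in replicate 2, above 57.3% and 78.0% of peaks. A weaker neighbour lay 12754 bases upstream, with signals of 1.21 and 1.13. The Opalin intron site had signals of 2.65 and 2.85, above 71.6% and 76.9% of peaks. Opalin encodes a membrane protein of myelinating glia, and this site lies 42356 bases downstream of the inner Dntt start. The Dntt intron site, 24316 bases downstream of the innermost start, had signals of 1.08 and 1.08. These 4 sites were called in both libraries.

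Another 2 sites in introns of Dntt differed between the libraries. The first, 1846 bases after the inner start, was a peak of the shorter list in replicate 2 with a signal of 0.928, and appeared in replicate 1 in the longer list with 0.644. The second, 9938 bases after the inner start, had a signal of 1.45 in replicate 2 and 0.591 in the longer list of replicate 1. Both thus passed the stricter limit in replicate 2 alone. With a promoter window of 2 kb in place of 1 kb, the first of these counted as a promoter peak of Dntt in replicate 2 only. The second held the forkhead motif GTAAACA.

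The Opalin intron site held 2 wide footprints 1 after the other in each library, with ACAGCAGGTGGC in the first and ACAGCAGGGGGC in the second, each with 1 mismatch to the CTCF consensus. The Dntt intron site held CCCCCAGAGGGC on the - strand, also with 1 mismatch and inside a footprint of both libraries. That footprint of 32 bases spanned the same bases in both libraries. The CAGGTG in the first Opalin footprint is an E box by its letters and lies within the CTCF match.

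**Figure D2:**
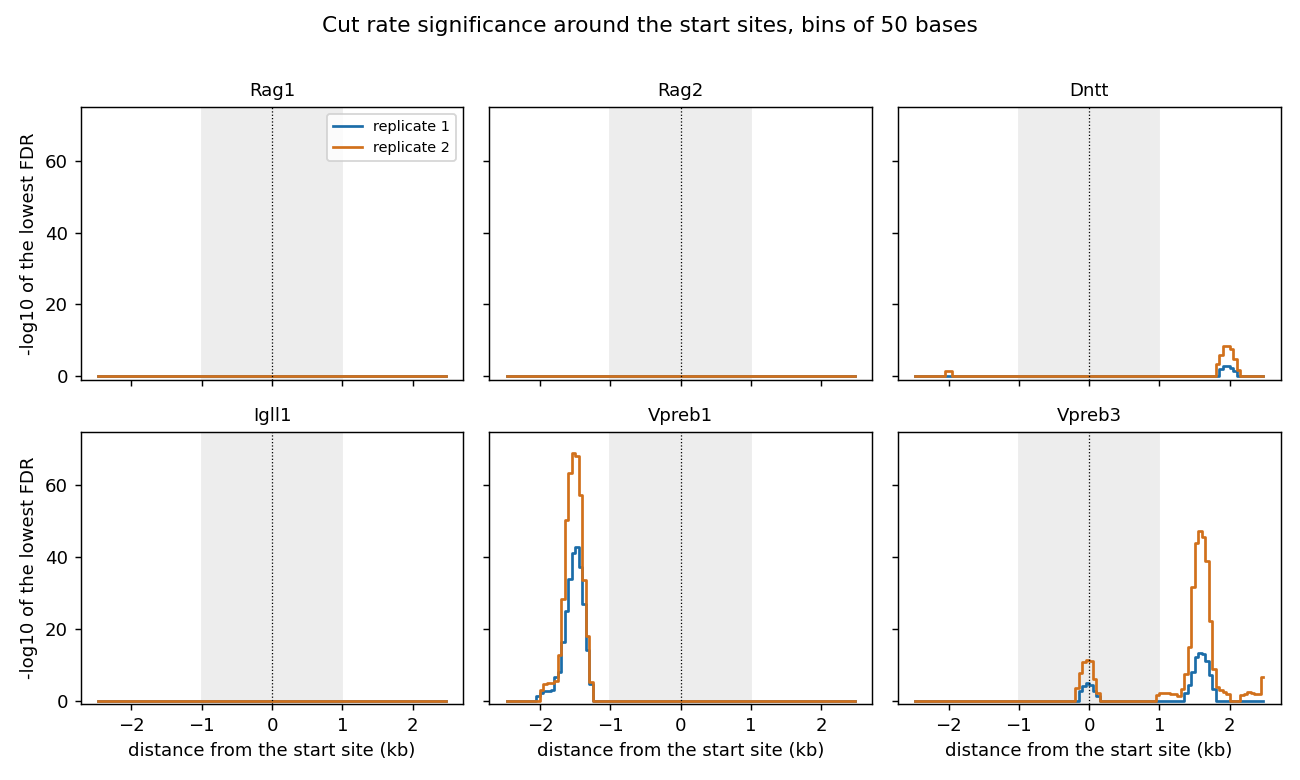
Cut rate significance within 2.5 kb of 1 start site of each gene, as −log10 of the lowest FDR in bins of 50 bases, for replicate 1 (blue) and replicate 2 (orange). A value of 0 means that no stretch with an FDR under 0.05 was listed, the grey band is the 1 kb on each side, and negative distances are upstream. Rag1, Rag2 and Igll1 are at 0 throughout, Vpreb1 rises only at the outer start it has next to Top3b, and Vpreb3 rises at its inner start and past its end.

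Vpreb1 and Igll1 encode the surrogate light chain and lie on the - strand with 4417 bases between them. Vpreb1 is at chr16:16868403-16870843 and Igll1 at chr16:16860671-16863985. Igll1 had no peak and 0 listed bases within 1 kb of its start in either library, and the nearest peak edge was 6756 bases away in replicate 1 and 6676 in replicate 2. Vpreb1 counted as having a promoter peak, with signals of 3.13 in replicate 1 and 4.36 in replicate 2, ranks of 10319 and 9657, and a lowest FDR of 1.61e-43 and 7.93e-70. The peak lies at the outermost start of Vpreb1, which belongs to a transcript outside the basic annotation. This start is 107 bases inside Top3b, a topoisomerase gene that runs the other way and has 10 annotated starts under the peak of replicate 1 and 11 under that of replicate 2. At the start of Vpreb1 in the basic annotation, 1588 bases further in, no peak lay within 1 kb and 0 bases were listed in either library. The outer start has a CpG ratio of 0.720 and the basic start one of 0.143. With start sites of the basic annotation alone, Vpreb3 was the single gene of the 6 with a promoter peak, against 53.4% and 56.9% of all genes. The peak is shared with Top3b, and the data do not assign it to either gene.

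The other site of this region, the Igll1 downstream site, lies 8924 bases past the Igll1 start and past the gene's end. Its signals were 0.981 and 0.907, above 33.1% and 40.1% of peaks, so it was the weaker of the 2 sites of the region in both libraries. It held CCAGCAGGGGGC, a match to the CTCF consensus with 0 mismatches, inside a footprint of 31 bases in replicate 1 and 33 in replicate 2. The Rag, Dntt and Igll1 regions, with that of Vpreb1, had 12 sites in the shorter list of replicate 2, and 5 of them matched the CTCF consensus with at most 1 mismatch. None of the 9 sites of the Vpreb3 region did, so 5 of all 21 sites matched, which is near the share of all peak windows. With at most 2 mismatches, 8 of the 12 and 13 of all 21 sites matched, then with sites of the Vpreb3 region among them. Such a match was found in 45.0% of peak windows of replicate 1 and 39.6% of replicate 2. The contrast with the Vpreb3 region thus depends on the limit.

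Vpreb2, a near-identical copy of Vpreb1 on the same chromosome, had no promoter peak in any list. From the start site on, the copies were 97.1% identical over the aligned bases of 846, and 45.1% of words of 36 bases in Vpreb1 occurred in Vpreb2. In the 1000 bases before the start this fell to 66.2% and 5.80%. How reads matching both copies were treated is not given in the sources used here, so the lack of a peak over the Vpreb1 body is uncertain.

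Vpreb3, at chr10:75943057-75949657 on the + strand, had a peak at its inner start and none at its outer one. At the inner start the peak had signals of 1.17 in replicate 1 and 1.60 in replicate 2, ranks of 24540 and 22709, and a lowest FDR of 1.56e-05 and 5.06e-12. It stood above 42.2% of the peaks of replicate 1 and 62.6% of those of replicate 2. At the outer start, 0 bases were listed within 1 kb in either library. Of all protein-coding genes, 73.9% in replicate 1 and 76.5% in replicate 2 had at least 1 peak in their locus, so the presence of such peaks at all 6 genes is common. The Vpreb3 locus held 6 and 9 peaks, or 1.29 and 1.93 per 10 kb, against a median over all genes of 0.336 and 0.437. This density was above that of 92.4% and 95.4% of genes. The density of the other 5 loci lay between 0.418 at Rag2 and 0.586 at Rag1 in replicate 1, and reached 0.854 at Dntt in replicate 2. Of the peaks in the Vpreb3 region, 4 in replicate 1 and 6 in replicate 2 lay at promoters of other genes, namely Mmp11, a matrix metalloproteinase, Chchd10, a mitochondrial protein, and Gm867. Gm5134 had a promoter peak in the longer list of replicate 2 only. The high density thus includes promoters of neighbours packed in front of Vpreb3.

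**Figure D3:**
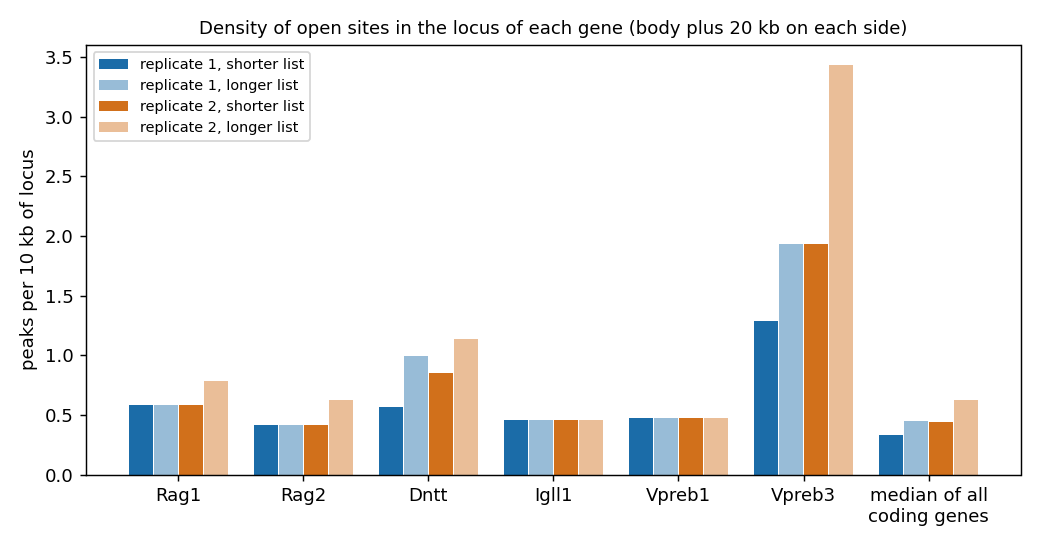
Peaks per 10 kb of locus for each gene, with the median over all protein-coding genes at the right, for replicate 1 (blue) and replicate 2 (orange), and for the shorter (dark) and longer (pale) lists. Vpreb3 is the highest of the 6 in each list, from 1.29 to 3.43 peaks per 10 kb, and Vpreb1 and Igll1 hold the same 2 peaks in every list.

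The strongest peak of this region was not at a promoter. The Vpreb3 end site lies 1591 bases downstream of the inner start, just past the end of the gene, with signals of 2.50 and 4.38 and ranks of 12663 and 9611. It was stronger than 70.2% and 84.2% of peaks, and it exceeded the peak at the Vpreb3 start in both libraries. A further site 2651 bases after the inner start was called in replicate 2 with a signal of 2.10 and was in the longer list of replicate 1 with 1.30. The Vpreb3 start held the octamer ATGCAAAT on the - strand 45 bases upstream and the RUNX core TGTGGT 30 bases upstream. The octamer was found in 1.41% of all promoter windows. In the printed sequence all but 1 base of the octamer stands in lower case, between footprints on either side. The first of these, TGGGCTGA, spanned the same 8 bases in both libraries. The Vpreb3 end site held TGTGGT partly within a footprint of replicate 2. The EBF motif CCCNNGGGA lay inside a footprint of both libraries at the peak 5026 bases upstream of the outer start. That peak counts as a promoter peak of Chchd10 alone, and its midpoint is in an exon of Gm867. This motif was present in 5.94% and 6.07% of peak windows.

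The loci of the genes were ordered by their strongest peak, which can lie at the promoter of another gene. By the percent of peaks in the library that ranked at or above it, the values were 20.1% ± 5.93 (SD, n = 2) for Vpreb1 and Igll1, which share it, 22.8% ± 9.89 for Vpreb3, 25.2% ± 4.48 for Dntt, and 38.5% ± 13.1 for Rag1 and Rag2, which also share theirs. The libraries gave 24.3% and 15.9% for Vpreb1, 29.8% and 15.8% for Vpreb3, 28.4% and 22.0% for Dntt, and 47.7% and 29.2% for the Rag genes. The Vpreb1 and Igll1 peak is the one shared with Top3b. For the Rag genes it is the Rag2 intron site at a B230118H07Rik start, and for Vpreb3 the Vpreb3 end site. The Dntt value comes from the Opalin intron site in replicate 1 and from the Dntt upstream site in replicate 2. Its SD is therefore not the spread of a single site. Vpreb1, Vpreb3 and Dntt overlapped in these values and do not differ beyond the spread. The Rag value was the weakest in each library, but 29.8% for Vpreb3 in replicate 1 lies inside the Rag range of 29.2% to 47.7%. The order also depends on the flanks. With 10 kb in place of 20 kb the value of Dntt became 51.4% ± 15.2 (62.2% and 40.6%) and that of the Rag genes stayed at 38.5%, so Dntt was then the weakest in both libraries. These Dntt values come from the Dntt intron site in replicate 1 and the site 9938 bases after the inner start in replicate 2.

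The other genes of the pathway had open promoters. Their lists were chosen with earlier results of these data known. All 15 partners of end joining and repair carried a peak at a promoter in each library, the best ranked being Atm, the kinase of the double-strand break response, Hmgb2, a DNA-bending cofactor of the recombinase, and Xrcc6, which encodes Ku70. Of 18 factors of early B cell development, 17 had one in replicate 1 and 18 in replicate 2. Pax5, Tcf3 (E2A) and Ebf1, transcription factors of B cell commitment, ranked best. Erg had none in replicate 1, and its best promoter peak in replicate 2 ranked 59603 of 60683, near the weakest of the list. The 14 signalling partners of the pre-B cell receptor each had one in replicates 1 and 2, led by Ccnd3, a cyclin, Cd79b, a signalling chain of the receptor, and Bach2, a transcription repressor. Together this makes 46 and 47 of 47 genes, against 2 and 2 of the 6. Of these 47 genes 16 were CpG-poor like the 6, and 15 and 16 of them had a promoter peak. The matching background is the 55.1% and 58.7% of all genes for the 47, and the 30.7% and 34.7% of CpG-poor genes for the 16.

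**Figure D4:**
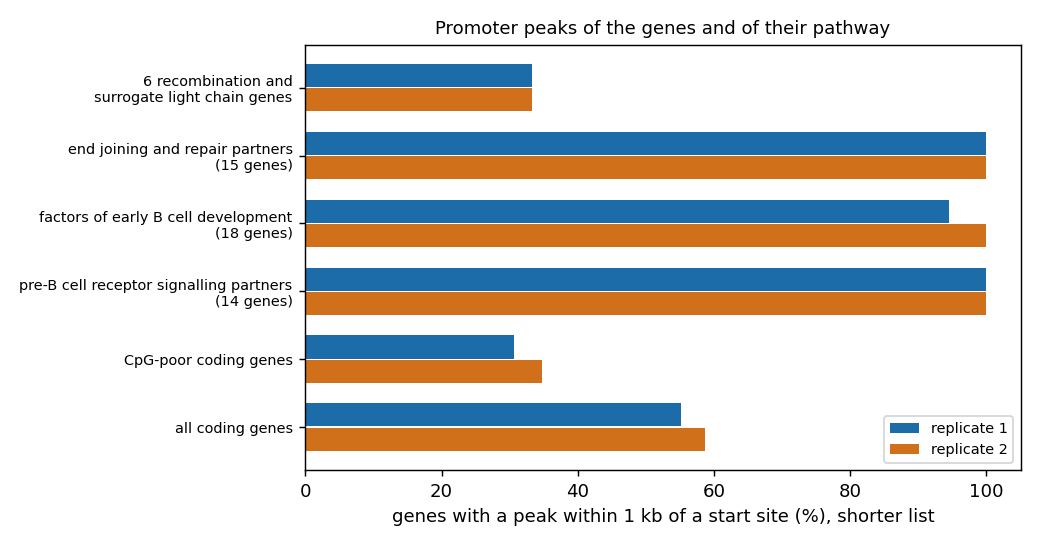
Percent of genes with a peak of the shorter list within 1 kb of a start site, for the 6 genes, the 3 lists of pathway genes, the CpG-poor genes and all protein-coding genes, in replicate 1 (blue) and replicate 2 (orange). The 6 genes stand at 33.3% in both libraries, close to the 30.7% and 34.7% of CpG-poor genes, and the pathway lists stand between 94.4% and 100%. Among the 6, the Vpreb1 call rests on an outer start with a CpG ratio of 0.720, which is not CpG-poor.

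Among these lists, the genes with the same promoter calls as a gene of interest and the most similar number of locus peaks were taken as most alike. For Vpreb3 these were Sox4, with the same 6 and 9 peaks, and Blnk, with 7 and 9. For Vpreb1 they were Il7r and Lig4, each with 2 and 3 peaks against its 2 and 2. For Rag1, Rag2, Dntt and Igll1 there were 0 such genes, since no listed gene lacked a promoter peak in all 4 peak lists. These likenesses rest on 2 libraries.

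Marker genes of several cell types were read in the same way. Genes of a list can be open in other cells of the spleen too. A count therefore does not show that the cells a list is named for were present, and this holds for the thymocyte list as well. Promoter peaks were present at all 8 markers of mature B cells in each library, with Cr2, Cd79b and Cd79a ranking best. Of 8 markers of B cell precursors, 7 and 8 had one, with Sox4, Myb and Lef1 ranking best. Where the other precursor markers had a promoter peak, the best ranked from 23977 to 31656 of 42454 peaks in replicate 1. In replicate 2 these ranks ran from 20145 to 59603 of 60683. For T cells the counts were 5 and 7 of 8, with Cd4 lacking one in both libraries, and for thymocytes 3 and 6 of 8. Erythroid markers counted 5 and 7 of 8, with Alas2 lacking one. These counts stand beside the 55.1% and 58.7% of all genes and the 30.7% and 34.7% of CpG-poor genes with a promoter peak. Most markers of mature B cells, T cells, thymocytes and erythroid cells are CpG-poor. Of the 8 markers of B cell precursors only 3 are, and 2 and 3 of these had a promoter peak. Most of the precursor markers, Sox4, Myb and Lef1 included, are also in the list of early B cell factors, so the 2 counts are not separate. The part of cell composition in the values at the 6 genes was not tested.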

How the data were processed

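Per the labels and the readme deposited with each of the 2 libraries, the authors made peaks, cut rates and footprints from that library's own alignments on mm10, without pooling. Aligner, peak caller and read depth: not given in the sources used here. Signal in the deposited peak lists is the authors' own value on an unstated scale and served to rank peaks within a library. The deposited cut rate and footprint files give an FDR (q-value), with limits of 0.05 and 0.01.

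Peak midpoints were placed against the comprehensive GENCODE vM21 annotation with Python 3.11.15, numpy 2.4.6 and pandas 2.3.3. Peaks overlapping by any base were shared, and intervals are exact (Clopper-Pearson, scipy 1.17.1). CpG ratios cover 500 bases to either side of a start. Interval code was tested on simulated data. Mapping of the hybrid's CAST alleles to a C57BL/6 assembly was not tested for its effect.

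Named were the 6 genes, Vpreb2, protein-coding genes starting in their loci, up to 3 best ranked genes and up to 3 without a promoter peak per list, and up to 2 genes most like each of the 6. Erg was named after its values were seen, and single thymocyte markers are not reported here. The members and lists were chosen with earlier results of these data known. Alternatives were the longer lists, other windows, flanks, overlaps and FDR limits, the strongest peaks, equal numbers of peaks and each library alone. The basic annotation, equal numbers of peaks for promoters and the CTCF and ZNF143 motifs were chosen after seeing the data.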

Additional observations from a re-analysis of the deposited data

How the results depend on the processing

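The count of 2 promoter peaks held with the longer lists, with windows of 500 bases and with equal numbers of peaks, and was 2.5 with windows of 2 kb. It was 1 with the outermost start site of each gene, where Vpreb3 lost its call, 1 with the strongest 21227 peaks of each library, where Vpreb3 again lost it, and 1 with the basic annotation, where Vpreb1 lost it. The 18.5 peaks over the loci became 37.5 with flanks of 50 kb and 6.5 with the strongest 21227 peaks. Each library alone gave 16 to 21. With flanks of 10 kb the mean for the strongest peak of Dntt, a different site in each library, moved from 25.2% to 51.4% of the ranking. This put it behind that of the Rag genes. Ranked within the longer list, the means became 13.8% for Vpreb1 and Igll1, 15.7% for Vpreb3, 17.3% for Dntt and 26.5% for the Rag genes. The order stayed the same, and for Vpreb1, Igll1 and Dntt the change exceeded the SD. The share of peaks in both libraries and the number of footprints moved by less than the spread between the libraries under every alternative tried. The 0 genes with a listed stretch at a promoter without a peak stayed at 0 with windows of 500 bases and FDR limits of 0.05 and 0.001. No paired analysis was possible because the libraries form 1 group. Without a read depth, an open site too weak to be called cannot be told apart from a closed one.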
